A study of Homo sapiens with 4 samples.

Results

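Peaks at the 3′ ends of protein-coding genes were taken from the LAP-Smad2 and LAP-Smad3 peak lists obtained after TGFβ-1. A peak was included when its centre lay within 1 kb of the end of a protein-coding gene span of GENCODE release 44, more than 3 kb from every annotated transcript start, and outside every coding (CDS) interval. By this rule, 146 of the 26828 LAP-Smad2 peaks and 671 of the 62551 LAP-Smad3 peaks were gene-end peaks, which makes 817 of 89379 peaks after TGFβ-1 and compares with 104156 peaks in all 4 lists. The rule used position only and no score of a peak.

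The peaks come from anti-GFP ChIP-seq in the human breast cancer line MDA-MB-231, whose cells carried a bacterial artificial chromosome (BAC) with either Smad2 or Smad3 joined to the LAP tag, which contains GFP. Each line was a pool of stably transfected cells, grown in Geneticin and sorted for GFP, and it kept its endogenous Smad proteins. Cells were left untreated or received 10 ng/mL TGFβ-1 for 2 h, which gives 4 conditions with 1 library each, so differences between conditions could not be checked against replicates and no p-value is given. Intervals are 95% intervals that cover counting error only, and read depth is unknown because the lists hold no read totals. For the untreated pair, labels and deposited list names give opposite Smads. Within 100 kb of the tagged genes, the library labelled LAP-Smad3 untreated held 20 peaks at SMAD2 and 1 at SMAD3, while the library labelled LAP-Smad2 untreated held 2 and 0. After TGFβ-1, the LAP-Smad2 list held 27 peaks at SMAD2 and 1 at SMAD3, and the LAP-Smad3 list held 4 and 53. None of the gene-end peaks lay within 100 kb of either gene. Each untreated list keeps the name on its label below, and is used for overlap and not for a direction.

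Smad2 and Smad3 are the receptor-activated Smads of the TGFβ pathway. Once phosphorylated by the activated receptor they join Smad4, enter the nucleus and act on chromatin together with other transcription factors. Smad3 can bind DNA directly, at the Smad box CAGAC and at GC-rich sites such as GGCGC, whereas the common form of Smad2 carries an insert next to its DNA-contacting hairpin. The end of a protein-coding gene holds the 3′ untranslated region (UTR) and the poly(A) signal, usually AATAAA, at which the transcript is cleaved before transcription stops further on. Gene ends are short of GC compared with promoters, and they can also hold regulatory elements of a neighbouring gene or copies of interspersed repeats such as Alu elements.

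Sequences of 4 gene-end peaks are shown because they include leading gene-end peaks outside exons, a pair of near-identical gene copies and a place where both lists have a peak. Each is the 200 bp window on the peak centre, read from the plus strand of hg38, and none touches an annotated exon. Capitals mark the Smad box CAGAC, the GC-rich Smad site GGCGC, the nuclear receptor hexamer AGGTCA and the AP-1 site TGANTCA on either strand. The CUL1 window, chr7:148801485-148801684, comes from the LAP-Smad2 list and holds 1 CAGAC and an internal tandem repeat, although the window as a whole had 1 alignment in hg38. The PRR20D window, chr13:57163882-57164081, and the PRR20B window, chr13:57150739-57150938, are LAP-Smad3 peaks next to copies of one gene family. The UQCC2 window, chr6:33693801-33694000, lies where both lists have a peak, and it holds 1 CAGAC and 1 AGGTCA.
CUL1: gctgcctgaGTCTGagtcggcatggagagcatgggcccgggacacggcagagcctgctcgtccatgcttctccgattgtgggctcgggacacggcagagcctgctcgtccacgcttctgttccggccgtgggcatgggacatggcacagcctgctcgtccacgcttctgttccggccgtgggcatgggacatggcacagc
PRR20D: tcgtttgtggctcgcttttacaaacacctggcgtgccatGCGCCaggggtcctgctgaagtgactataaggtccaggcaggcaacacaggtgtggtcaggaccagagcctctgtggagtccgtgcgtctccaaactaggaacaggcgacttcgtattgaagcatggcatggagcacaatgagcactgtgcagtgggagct
PRR20B: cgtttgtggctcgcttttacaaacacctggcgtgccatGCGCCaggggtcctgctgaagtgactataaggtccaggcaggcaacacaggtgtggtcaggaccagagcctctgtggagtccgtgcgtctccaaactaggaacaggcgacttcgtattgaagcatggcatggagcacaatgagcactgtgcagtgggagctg
UQCC2: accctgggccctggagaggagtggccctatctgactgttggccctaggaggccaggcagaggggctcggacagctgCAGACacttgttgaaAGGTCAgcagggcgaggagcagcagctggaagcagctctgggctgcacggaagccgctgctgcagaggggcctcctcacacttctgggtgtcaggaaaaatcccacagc

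The PRR20D and PRR20B windows were identical over 200 of 200 bases when shifted by 1 bp, so reads from these windows cannot be told apart by sequence. For the LAP-Smad2 peak in the UTR of CUEDC1, the 30 bases around the Smad motif nearest the summit, a GGCGC on the minus strand, are shown from chr17:57861445-57861474.
CUEDC1: gtgcagtcggagaGCGCCgcgggtgaatgg

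The first question was whether gene ends hold more peaks than random placement would give. The expected number was computed exactly from the share of bases that meet the rule, chromosome by chromosome, without drawing placements. In hg38, 21.3 Mb of 2938 Mb, or 0.724%, meet the rule, and these bases lie at 13366 of 20033 protein-coding gene ends, which are called usable ends here. LAP-Smad2 had 146 gene-end peaks where 212 were expected, a ratio of 0.690 (0.587 to 0.811). LAP-Smad3 had 671 where 485 were expected, a ratio of 1.38 (1.28 to 1.49). On even placement, gene ends therefore held fewer LAP-Smad2 peaks and more LAP-Smad3 peaks than their share of the genome. The ratio was below 1 on 18 of 24 chromosomes for LAP-Smad2 and above 1 on 22 of 24 for LAP-Smad3.

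**Figure D1:**
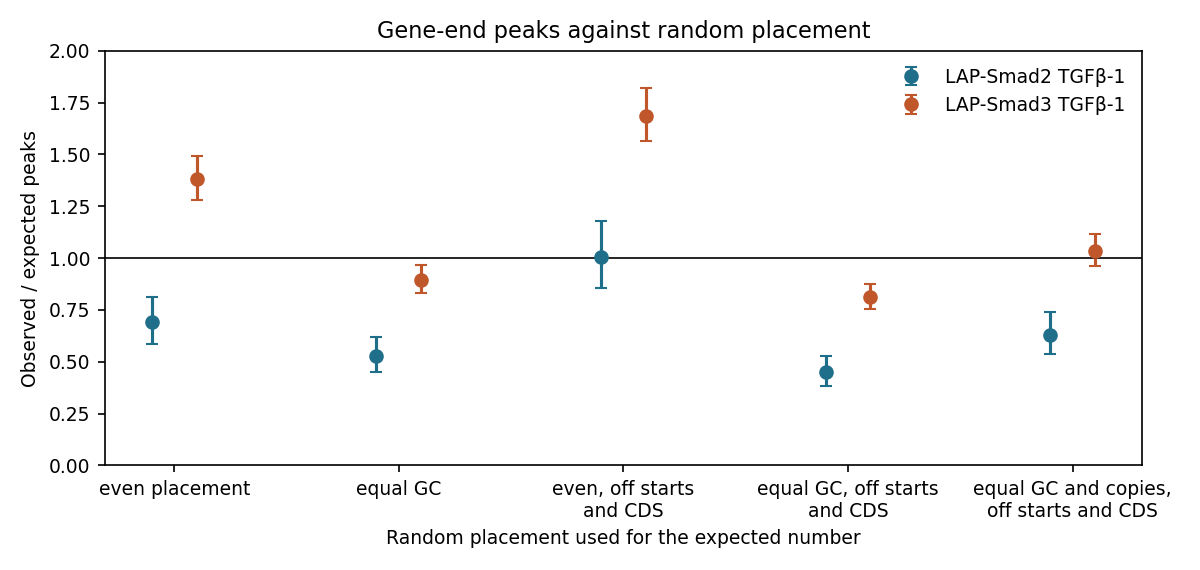
Observed over expected number of gene-end peaks (y axis) for LAP-Smad2 and LAP-Smad3 after TGFβ-1 under 5 ways of random placement (x axis), with points for the ratio and bars for 95% counting intervals. LAP-Smad3 lies above LAP-Smad2 in each column, and its ratio moves from 1.38 to 0.896 when windows of equal GC content are used.

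Both directions depended on which positions a placement could reach. The peaks were far richer in GC than gene ends are, and with windows of equal GC content in 2% steps the ratio was 0.529 (0.450 to 0.621) for LAP-Smad2 and 0.896 (0.831 to 0.966) for LAP-Smad3, so that the LAP-Smad3 ratio passed to the other side of 1. Many peaks lay near transcript starts, which the rule leaves out. Among the 14887 LAP-Smad2 and 41636 LAP-Smad3 peaks off transcript starts and CDS, placed evenly over positions of the same kind, the ratio was 1.005 (0.855 to 1.18) for LAP-Smad2 and 1.69 (1.57 to 1.82) for LAP-Smad3. With equal GC content among these positions, the ratios were 0.449 (0.382 to 0.528) and 0.813 (0.754 to 0.876). Matched in GC content and in high-copy sequence, which is defined below, they were 0.629 (0.535 to 0.739) and 1.04 (0.960 to 1.12). The interval of this last LAP-Smad3 value includes 1. With high-copy windows removed from peaks and positions alike, equal GC content gave 0.639 (0.529 to 0.771) for LAP-Smad2. For LAP-Smad3 it gave 1.13 (1.03 to 1.24), an interval above 1. LAP-Smad2 was near or below its expected number in each of these comparisons, and the LAP-Smad3 number was above, below or near its expected value according to the placement. These ratios alone do not set gene ends apart from their surroundings, and the flanks are given with the densities below.

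Between the lists, the share of gene-end peaks was 0.544% for LAP-Smad2 and 1.07% for LAP-Smad3, a difference of 0.529 percentage points (0.405 to 0.645). Among peaks off transcript starts and CDS the shares were 0.981% and 1.61%, a difference of 0.631 (0.424 to 0.823). Without high-copy windows they were 2.04% of 5199 and 2.89% of 15900 peaks, a difference of 0.854 (0.365 to 1.30). The LAP-Smad3 list was 2.33 times as long as the LAP-Smad2 list and held 4.60 times as many gene-end peaks. Since each condition is 1 library, the protein, the line and the library cannot be told apart as the source of these differences. In the untreated lists, the library labelled LAP-Smad2 had 68 gene-end peaks of 11266 (ratio 0.808, 0.638 to 1.02) and the library labelled LAP-Smad3 had 19 of 3511 (0.684, 0.438 to 1.07), both on even placement.

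Over all windows, the density of peaks was low next to the gene end itself, where GC content is low too. In the last 250 bp before the end it was 2.98 peaks per Mb for LAP-Smad2 and 19.4 for LAP-Smad3, where GC content alone would have given 10.5 and 26.98. In the first 250 bp past the end it was 2.12 and 26.9, against 12.99 and 34.7 from GC content. Without high-copy windows, the LAP-Smad3 density was instead not below the GC expectation. It was 17.9 (45 peaks) against 15.4 per Mb before the end and 20.9 (51 peaks) against 20.3 past it. LAP-Smad2 stayed below its expectation, with 2.38 (6 peaks) against 5.86 and 2.05 (5 peaks) against 7.66 per Mb. No intervals were computed for these 250 bp bins, so counting error is not shown for them. LAP-Smad3 had 27.2 peaks per Mb of usable sequence (24.1 to 30.6) in the last 1 kb before the end and 35.5 (32.1 to 39.1) in the first 1 kb past it. From 1 to 10 kb away its density was 29.4 (28.2 to 30.7) before the end and 29.1 (28.0 to 30.2) past it. The first 1 kb past the end was thus denser than either flank beyond the counting intervals, while the interval of the last 1 kb before the end overlapped those of the flanks. In that first 1 kb past the end, GC content alone would have given 39.8 LAP-Smad3 peaks per Mb. The observed density was 0.890 times this value, near the 0.848 and 0.884 of the flanks before and past the end. LAP-Smad2 had 6.45 peaks per Mb (4.98 to 8.22) in the last 1 kb before the end and 7.24 (5.75 to 8.99) in the first 1 kb past it. Its flanks had 6.66 (6.09 to 7.26) before and 9.10 (8.48 to 9.74) past the end. Within 500 bp on either side of the end, where 60 LAP-Smad2 and 307 LAP-Smad3 peaks lay, the density was 5.53 per Mb (4.22 to 7.12) and 28.3 (25.2 to 31.7).

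**Figure D2:**
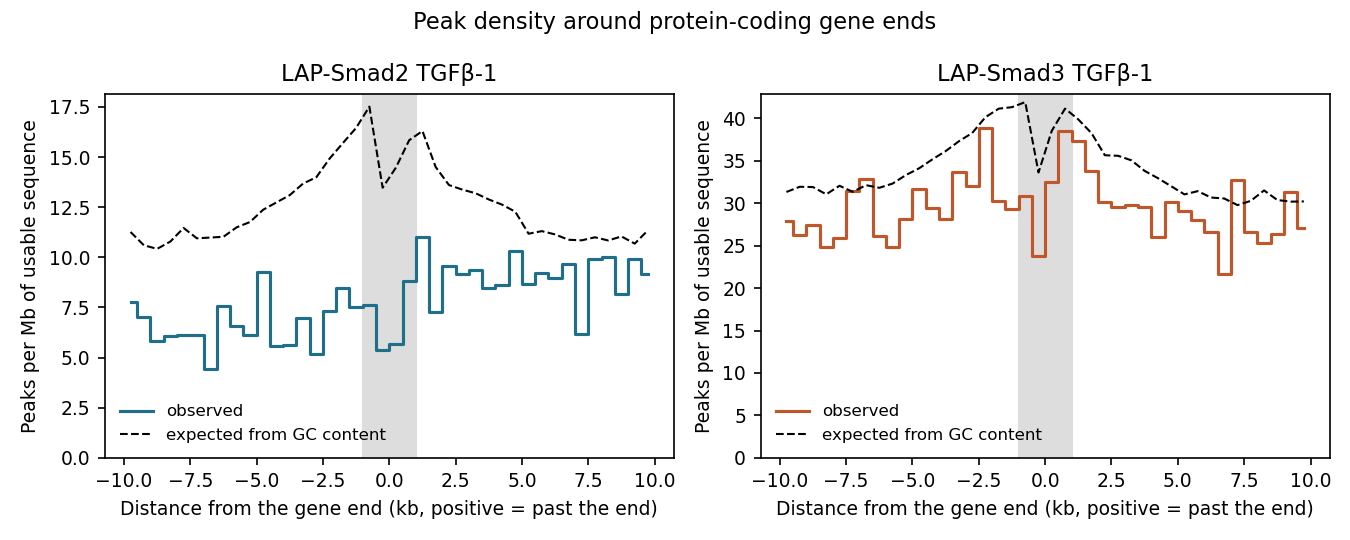
Peaks per Mb of usable sequence (y axis) by distance of the peak centre from the nearest protein-coding gene end (x axis, kb, 500 bp bins, positive past the end), for LAP-Smad2 (left) and LAP-Smad3 (right); the grey band is the 1 kb on each side that the rule covers. Solid steps are observed peaks and dashed lines the number expected from GC content, which within 1 kb was 15.3 per Mb for LAP-Smad2 and 38.8 per Mb for LAP-Smad3 against 6.86 and 31.5 observed.

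GC content alone would have placed 15.3 LAP-Smad2 and 38.8 LAP-Smad3 peaks per Mb within 1 kb of the end. The observed densities there were 0.449 and 0.814 times these values, against 0.533 and 0.848 in the flank before the end and 0.741 and 0.884 in the flank past it. Without high-copy windows, the LAP-Smad3 density within 1 kb was 25.8 per Mb (23.5 to 28.3), compared with 21.3 (20.1 to 22.5) before and 20.5 (19.4 to 21.6) past it. This excess over the flanks was accompanied by GC content, since the density expected from it within 1 kb was 22.9 per Mb against 20.6 and 19.1 in the flanks. The corresponding LAP-Smad2 density was 5.96 per Mb (4.88 to 7.20), against 4.85 (4.30 to 5.46) and 5.81 (5.23 to 6.44). Without high-copy windows, the LAP-Smad2 density within 1 kb was 0.639 times its GC expectation. In the flanks it was 0.639 times before and 0.804 times past the end. For LAP-Smad3 these values were 1.13 within 1 kb, 1.04 before and 1.07 past the end.

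Within the 1 kb, 81 LAP-Smad2 peaks lay past the gene end (55.5%, 47.4% to 63.3%) and 397 LAP-Smad3 peaks did (59.2%, 55.4% to 62.8%). Past-end positions made up 52.6% of the usable bases, a value inside the LAP-Smad2 interval and below the LAP-Smad3 interval. Without high-copy windows the LAP-Smad3 share was 52.6% (48% to 57.1%), and without windows with another copy 54.4% (49.9% to 58.9%), and both intervals include the share of bases. By annotation, 46 LAP-Smad2 peak centres were in a UTR, 36 in an intron, 5 in another exon and 59 outside every transcript. The LAP-Smad3 centres were 222, 136, 20 and 293 in the same order. A UTR covered 40.6% of the usable bases and held 31.5% (24.5% to 39.4%) of LAP-Smad2 and 33.1% (29.6% to 36.7%) of LAP-Smad3 gene-end peaks. In both lists the UTR was thus the part of the gene end with fewer peaks than its share of bases. It had 5.32 LAP-Smad2 peaks per Mb (3.89 to 7.10) and 25.7 LAP-Smad3 peaks per Mb (22.4 to 29.3). Outside transcripts the densities were 7.02 (5.34 to 9.06) and 34.9 (30.98 to 39.1) per Mb. In introns they were 9.17 and 34.6 per Mb, and in other exons, with 5 and 20 peaks, 16.5 and 66.1 per Mb. The LAP-Smad2 interval for the UTR includes the 6.86 per Mb found within 1 kb of the end. High-copy windows, defined below, made up 17.4% and 17.1% of UTR peaks, against 32.2% and 39.6% outside transcripts. These shares and densities were not matched for GC content or high-copy sequence, and the part of these was not tested.

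At the 1 kb limit of the rule, the values of the peaks just inside and just outside were as follows. The LAP-Smad2 peaks nearest to the limit on the inside were those of ATXN2 at 992 bp, TIMM22 at 989 bp and TRPV1 at 986 bp, with fold enrichments of 3.40, 3.23 and 3.92. On the outside, those of TRIM72 at 1002 bp and TTLL2 at 1006 bp had 3.35 and 3.94. For LAP-Smad3, NPIPA3 at 999 bp, WNT7B at 998 bp and GPX6 at 998 bp had fold enrichments of 9.38, 4.41 and 4.60 on the inside. TBC1D3H at 1001 bp, CRHBP at 1001 bp and TBC1D3B at 1004 bp had 4.97, 4.85 and 4.97 on the outside.

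Gene-end peaks had medians of strength close to those of their lists and a lower share of very strong peaks, though by counts of 4 and 11. The fold enrichment is the authors' ratio of the read pileup at the summit to the local background, and it is compared only within a list. LAP-Smad2 gene-end peaks had a median fold enrichment of 3.76 (quartiles 3.28 and 4.25) against 3.98 over all LAP-Smad2 peaks, a median −log10 q of 4.49 against 4.66 and a median width of 246 bp against 250 bp. LAP-Smad3 gene-end peaks had a median fold enrichment of 4.97 (4.27 and 5.52) against 4.97, a median −log10 q of 4.40 against 4.43 and a median width of 230 bp against 239 bp. At gene ends −log10 q reached 15.4 in LAP-Smad2 and 18.04 in LAP-Smad3, whereas the lists reached 339 and 129. A −log10 q above 10 was found for 4 LAP-Smad2 gene-end peaks (2.74%, against 5.60% of the list) and 11 LAP-Smad3 gene-end peaks (1.64%, against 3.48%). Near transcript starts the shares were 3.20% in LAP-Smad2, close to its gene-end share, and 3.87% in LAP-Smad3. Among the other peaks off transcript starts and CDS they were 7.64% and 3.36%. Scores were coarse in LAP-Smad3, where the 671 gene-end peaks took 280 different pairs of fold and q-value and 65 peaks shared a fold enrichment of 5.52 with a −log10 q of 4.72. In LAP-Smad2, 146 peaks took 136 different pairs.

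GC content separated gene-end peaks from the sequence around them and the lists from each other. The 200 bp windows of LAP-Smad2 gene-end peaks had a mean GC content of 64.6% ± 8.03 (SD over 146 peaks) and those of LAP-Smad3 59.1% ± 4.97 (SD over 671 peaks). Usable gene-end positions averaged 42.9%. The difference between the lists was 5.47 percentage points (4.11 to 6.82, an interval over peaks, which are not replicates of the experiment). Over all peaks the means were 63.8% and 58.5%, a difference of 5.32, but each list mixes unlike parts. Peaks near transcript starts had means of 68.2% in LAP-Smad2 and 59.9% in LAP-Smad3. The other peaks off transcript starts and CDS had 60.3% and 57.8%, below the gene-end means of both lists. At gene ends, the difference between the lists was 4.96 (2.30 to 7.63) for peaks in a UTR and 4.89 (3.35 to 6.42) without high-copy windows.

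**Figure D3:**
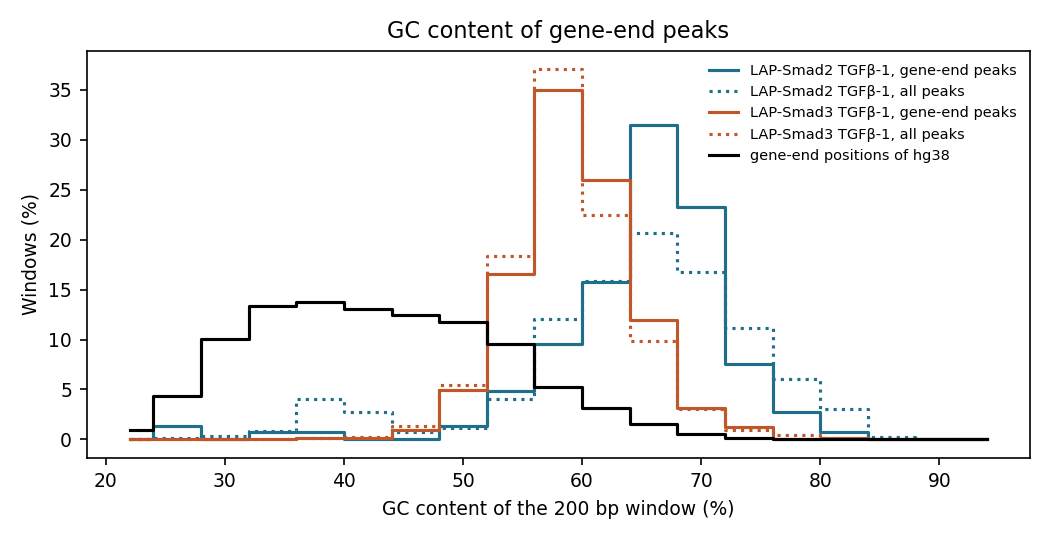
Share of 200 bp windows (y axis, %) by GC content (x axis, %, 4% bins) for gene-end peaks (solid) and all peaks (dotted) of LAP-Smad2 and LAP-Smad3 after TGFβ-1, and for every usable gene-end position of hg38 (black). The means are 64.6% and 59.1% for gene-end peaks and 42.9% for gene-end positions, so both sets of peaks sit in the GC-rich tail of gene-end sequence.

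High-copy sequence was less frequent at gene-end peaks than at the other peaks off transcript starts and CDS, and more frequent than at LAP-Smad2 peaks near transcript starts. A window was called high-copy when at least 25% of its 16-base words occurred 100 or more times in hg38. By this measure 40 LAP-Smad2 gene-end peaks (27.4%, 20.8% to 35.1%) and 211 LAP-Smad3 gene-end peaks (31.4%, 28.0% to 35.1%) were high-copy. The shares were 42.9% and 50.7% over all peaks and 65.5% and 62.3% over the other peaks off transcript starts and CDS. Within 3 kb of a transcript start they were 16.1% (15.5% to 16.8%) for LAP-Smad2 and 29.8% (29.1% to 30.4%) for LAP-Smad3, the latter within the gene-end interval. Gene-end positions were themselves low in such sequence, with 16.3% of usable bases against 24.2% of hg38, so the peaks exceeded the positions they could fall on. Past the end, 39.0% (34.4% to 43.9%) of LAP-Smad3 gene-end peaks were high-copy, against 20.4% (16.1% to 25.6%) at or before it. For LAP-Smad2 the shares were 33.3% (24.03% to 44.1%) and 20% (12.1% to 31.3%), whose intervals overlap. The usable positions differed in the same direction. By 250 bp bin, 13.7% to 25.8% of them were high-copy in the first 1 kb past the end. In the last 1 kb before it, 6.08% to 13.8% were.

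The highest-ranked LAP-Smad3 gene-end peaks lay largely in repeated or duplicated sequence. Of the 20 with the highest −log10 q, 18 (90%, 69.9% to 97.2%) were high-copy or had another near-identical copy in hg38, against 295 of the other 651 (45.3%, 41.5% to 49.2%). In LAP-Smad2, 9 of the top 20 were (45%, 25.8% to 65.8%), against 45 of the other 126 (35.7%, 27.9% to 44.4%), with intervals that overlap. Over the whole lists, the share was 65.2% for LAP-Smad3, which lies below the interval of its top 20, and 53.9% for LAP-Smad2, which lies inside it. A peak in such sequence can hold reads from several copies, and its place is uncertain to that extent.

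The 6 LAP-Smad2 gene-end peaks with the highest −log10 q belonged to SLC51A, RAMACL, CUEDC1, CUL1, GPR12 and TAF13. The peak 755 bp past the end of SLC51A, a subunit of the organic solute transporter, had a fold enrichment of 6.02 and a −log10 q of 15.4. It lay in an intron of PCYT1A, which encodes a phosphatidylcholine synthesis enzyme, and it also overlapped peaks of both untreated lists. The peak 984 bp past the end of RAMACL had a fold enrichment of 6.03, lay in an intron of the kinase gene RPS6KA2, had 2 alignments of its window in hg38 and overlapped a peak of the library labelled LAP-Smad3 untreated. The peak in the UTR of CUEDC1, 188 bp before the end at chr17:57861309-57861553, had a fold enrichment of 5.50 and no high-copy sequence. The peak 475 bp past CUL1, the scaffold of SCF ubiquitin ligases, at chr7:148801452-148801717, had a fold enrichment of 5.45 and lay outside every transcript. Those of GPR12, an orphan receptor, and TAF13, a subunit of TFIID, had fold enrichments of 5.94 and 5.84 in windows with 94.6% and 98.4% high-copy words. None of the 6 overlapped a LAP-Smad3 peak after TGFβ-1.

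The 6 LAP-Smad3 gene-end peaks with the highest −log10 q belonged to ENSG00000262633, PRR20D, GPR135, MEMO1, PRR20B and AK3. The peak of ENSG00000262633, 273 bp before its end at chr17:47049486-47049832, had a fold enrichment of 11.3 and a −log10 q of 18.04, and its window had 6 alignments in hg38. The peaks past the ends of PRR20D and PRR20B had fold enrichments of 9.98 and 9.25 and 5 alignments each. The peak in an intron of GPR135, an orphan receptor, had a fold enrichment of 9.50, with every 16-base word of its window high-copy. The UTR peaks of MEMO1, a mediator of cell motility, and of AK3, a mitochondrial adenylate kinase, had fold enrichments of 10.5 and 9.80 in windows of 92.97% and 100% high-copy words. None of the 6 overlapped a peak of another list.

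Gene-end peaks of the lists coincided at few places. By at least 1 bp, 29 of 146 LAP-Smad2 gene-end peaks overlapped a LAP-Smad3 peak (19.9%, 14.2% to 27.1%), against 24.5% of all LAP-Smad2 peaks, which is within the interval. The difference from the other LAP-Smad2 peaks off transcript starts and CDS was -10.7 percentage points (-16.4 to -3.41). Of the LAP-Smad3 gene-end peaks, 33 of 671 overlapped a LAP-Smad2 peak (4.92%, 3.52% to 6.83%), against 10.6% of all LAP-Smad3 peaks. The difference was -5.73 percentage points (-7.14 to -3.81) from all other LAP-Smad3 peaks. From those off transcript starts and CDS it was -6.11 (-7.54 to -4.18). None of these differences was matched for high-copy sequence. With the untreated lists, 21 LAP-Smad2 gene-end peaks overlapped the library labelled LAP-Smad2 (14.4%, against 14.1% of the list) and 10 the library labelled LAP-Smad3 (6.85%, against 9.25%). For LAP-Smad3, these were 33 (4.92%, against 7.27%) and 5 (0.745%, against 1.10%). No overlap with any other list was found for 105 LAP-Smad2 (71.9%, against 63.1% of the list) and 617 LAP-Smad3 (92.0%, against 85.1%) gene-end peaks. The overlap of LAP-Smad2 gene-end peaks with LAP-Smad3 fell to 9.59% in lists of equal length and to 10.4% without high-copy windows. The share over all LAP-Smad2 peaks is not given for these settings, so no difference from the list can be read from them.

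**Figure D4:**
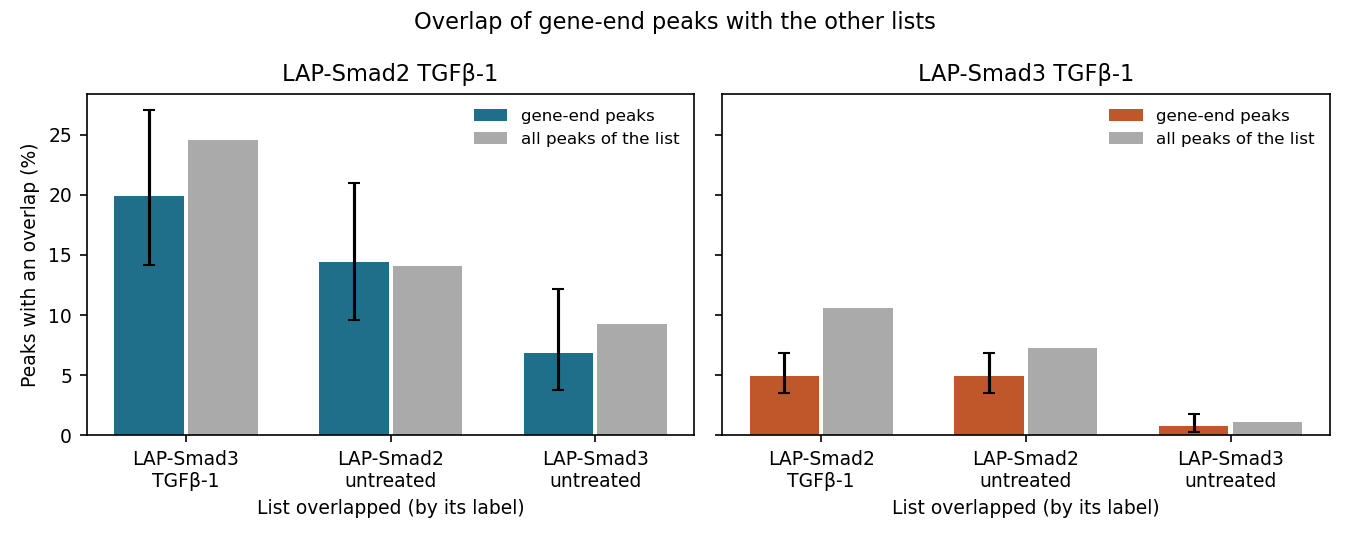
Share of peaks that overlap another list by at least 1 bp (y axis, %) for gene-end peaks (coloured, bars for 95% counting intervals) and all peaks (grey) of LAP-Smad2 (left) and LAP-Smad3 (right), by the list overlapped (x axis, named by its label). LAP-Smad3 gene-end peaks overlap LAP-Smad2 peaks in 4.92% of cases against 10.6% over the list.

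The gene-end peaks that coincided were mostly in high-copy sequence. Of the 29 LAP-Smad2 gene-end peaks that overlapped LAP-Smad3, 18 were high-copy (62.1%, 44% to 77.3%), against 22 of the 117 that did not (18.8%, 12.8% to 26.8%). In LAP-Smad3 these were 18 of 33 (54.5%, 38.0% to 70.2%) and 193 of 638 (30.3%, 26.8% to 33.9%). The LAP-Smad3 peaks that overlapped LAP-Smad2 had a mean GC content of 63.9%, compared with 58.9% for the rest. Both members were gene-end peaks in 28 overlapping pairs at 26 genes, and in 14 of these pairs an untreated list had a peak as well. The matching values over all overlapping and non-overlapping peaks of each list are not given. Whether these traits are particular to gene ends therefore cannot be read from them.

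Ranked by both lists, the 10 leading pairs were at TBC1D3E, UQCC2, MYH8, NPIPA7, TRPV1 (2 pairs), GAGE2E, FRG2B, MYH13 and SF3B6. TBC1D3E, NPIPA7, GAGE2E and FRG2B belong to multi-copy gene families, and reads from their copies cannot be assigned with certainty. Among the other genes, the pair of UQCC2, an assembly factor of mitochondrial complex III, had the lowest share of high-copy words, 1.62%, and a single alignment in hg38. Its LAP-Smad2 peak at chr6:33693797-33694005 had a fold enrichment of 3.26 and its LAP-Smad3 peak at chr6:33693796-33694086 one of 7.84, 392 bp and 352 bp past the UQCC2 end in an intron of ITPR3, an inositol trisphosphate receptor, and no untreated list had a peak there. At MYH8 and MYH13, myosin heavy chain genes, the pairs lay 645 bp and 535 bp past the end by the LAP-Smad2 peak, with 92.4% and 100% high-copy words. At TRPV1, an ion channel gene, the LAP-Smad2 peaks had fold enrichments of 4.20 and 3.92 and shared a LAP-Smad3 peak of 5.85. At SF3B6, a splicing factor gene, the pair lay 497 bp before the end with fold enrichments of 4.27 in LAP-Smad2 and 5.44 in LAP-Smad3.

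Gene-end peaks were spread over many genes. LAP-Smad2 had them at 142 usable ends (1.06% of 13366) and LAP-Smad3 at 623 (4.66% of 13366), with 39 genes in both, which is 27.5% of the LAP-Smad2 and 6.26% of the LAP-Smad3 genes. At 13 of the 39 genes the peaks of the lists did not overlap. Of the 726 genes with a gene-end peak in either list, 646 had 1 peak and 70 had 2. UQCC2 had the most with 4, of which 3 were LAP-Smad3 peaks, and 9 genes had 3 each, namely FAM83G, GAGE2E, NABP1, OPN1MW, SLC9A8, TRIM72, TRPV1, ZFAND3 and ZZEF1. At SLC9A8, a sodium and proton exchanger gene, the LAP-Smad3 peaks lay 911 bp before the end and 285 bp and 599 bp past it, with fold enrichments of 6.37, 4.03 and 4.48 in sequence without high-copy words. At ZZEF1 and ZFAND3, a LAP-Smad2 and a LAP-Smad3 peak overlapped in the UTR in sequence without high-copy words, with fold enrichments of 3.69 and 4.98 at ZZEF1 and 3.28 and 5.05 at ZFAND3. No untreated list had a peak there. OPN1MW, a cone opsin gene with near-identical neighbours, had 4 alignments for each of its windows.

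Genes with a gene-end peak more often had a peak of the same list near a transcript start. A LAP-Smad2 peak within 3 kb of a start was found for 71 of 142 genes with a LAP-Smad2 gene-end peak (50%, 41.9% to 58.1%), against 35.7% of all genes with usable ends. The difference from genes without such a peak was 14.5 percentage points (6.33 to 22.6). For LAP-Smad3 it was 348 of 623 genes (55.9%, 51.9% to 59.7%), against 37.7%, a difference of 19.02 (15.01 to 22.96). Ends with a peak were also richer in GC, with means of 51.9% and 50.7% against 43.2% and 42.9% for other ends. Within the GC-richest of 3 equal groups of gene ends, the shares were 49.1% (39.8% to 58.4%) against 39.2% of the other ends for LAP-Smad2 and 60.9% (56.3% to 65.3%) against 46.8% for LAP-Smad3. In the middle group they were 14 of 25 (56%, 37.1% to 73.3%) against 35.5%, and 58 of 129 (45.0%, 36.6% to 53.6%) against 35.3%. Both of these intervals lie above the other value. In the GC-poorest group they were 4 of 9 (44.4%, 18.9% to 73.3%) against 31.9%, and 18 of 47 (38.3%, 25.8% to 52.6%) against 29.2%, and both intervals include the other value.

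Where a gene on the opposite strand ended within 2 kb, in a tail-to-tail arrangement, LAP-Smad3 peaks were denser per base. LAP-Smad3 had 73 peaks in 1.37 Mb of such ends, or 53.3 per Mb (41.7 to 66.96), against 30.04 (27.7 to 32.5) at the other ends. LAP-Smad2 had 5 peaks there, or 3.65 per Mb (1.18 to 8.51), against 7.08 (5.96 to 8.35). Counted per end, 5.58% (4.44% to 6.99%) of the 1255 tail-to-tail ends had a LAP-Smad3 peak, against 4.57% (4.21% to 4.95%) of the others, with intervals that overlap. The bases of tail-to-tail ends had a mean GC content of 45.2%, against 42.5% at the other ends, and the part of this in the density was not tested.

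The counts in the gene lists were small and are set against the 1.06% of all usable ends with a LAP-Smad2 peak and the 4.66% with a LAP-Smad3 peak. Of 40 TGFβ ligand, receptor and Smad pathway genes with a usable end, 0 had a LAP-Smad2 peak, which allows a share of up to 7.50%, and 1 had a LAP-Smad3 peak (2.5%, 0.443% to 12.9%). That was BMPR2, the type II BMP receptor, with a fold enrichment of 2.91 at 266 bp past the end in high-copy sequence. Of 34 TGFβ response genes, 0 had a LAP-Smad2 peak (up to 8.82%) and 2 a LAP-Smad3 peak (5.88%, 1.63% to 19.1%). BHLHE40, a circadian bHLH repressor, had it 787 bp past the end with a fold enrichment of 4.97, and CDKN1A, a cell cycle inhibitor gene, in the UTR with 4.56. The shares over all usable ends lie within the intervals or limits of both lists, so no difference from them was detectable at these counts.

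Of 34 genes of EMT factors and extracellular matrix, 4 had a LAP-Smad3 gene-end peak (11.8%, 4.67% to 26.6%) and 0 a LAP-Smad2 peak. SNAI1, the EMT factor Snail, had a peak in the UTR, 474 bp before the end, with a fold enrichment of 4.49. LAMB3, a laminin chain, had one in an intron with 3.86, and COL5A1, a collagen chain, one 692 bp past the end with 3.86. None of the 4 overlapped a peak of another list, and their windows held at most 1.08% high-copy words.

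The bHLH factors and the nuclear receptors each had 39 genes with a usable end. In the bHLH list, 1 gene had a LAP-Smad2 peak (2.56%, 0.454% to 13.2%) and 3 a LAP-Smad3 peak (7.69%, 2.65% to 20.3%). TFEB, a regulator of lysosomal genes, carried the LAP-Smad2 peak with a fold enrichment of 3.18 and a −log10 q of 7.04, and TCF3, an E protein gene, and HAND2 carried LAP-Smad3 peaks of 6.10 and 5.52 beside BHLHE40. The nuclear receptors had the same counts of genes. RXRA, the common partner of many nuclear receptors, had a LAP-Smad2 peak 234 bp past its end with a fold enrichment of 3.24 and a LAP-Smad3 peak 727 bp past it with 5.52, which did not overlap. PPARD and NR1D2 had LAP-Smad3 peaks of 4.67 and 3.86. Of 15 genes of 3′ end processing, 0 had a gene-end peak in either list, which allows a share of up to 20%. Each of these shares is compatible within its interval with the 1.06% and 4.66% over all usable ends, apart from that of EMT factors and matrix in LAP-Smad3, whose lower bound of 4.67% lay next to it.

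Motifs were counted in the 200 bp windows on both strands and set against 104289 gene-end windows outside all peaks, weighted to the GC content of the peaks. CAGAC occurred in 40.4% of LAP-Smad2 gene-end peaks, 0.969 times the weighted background (0.786 to 1.16). For LAP-Smad3 it was 34.4%, or 0.817 times (0.734 to 0.904), which became 1.16 without weighting for GC content. GGCGC occurred in 48.6% of LAP-Smad2 gene-end peaks, or 1.48 times that expected (1.24 to 1.72). For LAP-Smad3 it was 33.4%, or 1.64 times (1.47 to 1.82). Without weighting, the background windows held CAGAC in 29.8% and GGCGC in 6.95% of cases. GGCGC was thus above GC-matched gene-end sequence in both lists, and the Smad box was not. It was not particular to gene ends, since its share there was below that of the other peaks of each list. For LAP-Smad2 the difference was -8.16 percentage points (-16.2 to -0.105), and for LAP-Smad3 -9.96 (-13.4 to -6.28). High-copy windows made up 31 of the 71 LAP-Smad2 and 130 of the 224 LAP-Smad3 gene-end peaks with GGCGC. Without high-copy windows in peaks and background, the GGCGC ratio was 1.18 (0.909 to 1.48) for LAP-Smad2 and 1.12 (0.934 to 1.34) for LAP-Smad3, and both intervals include 1.

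**Figure D5:**
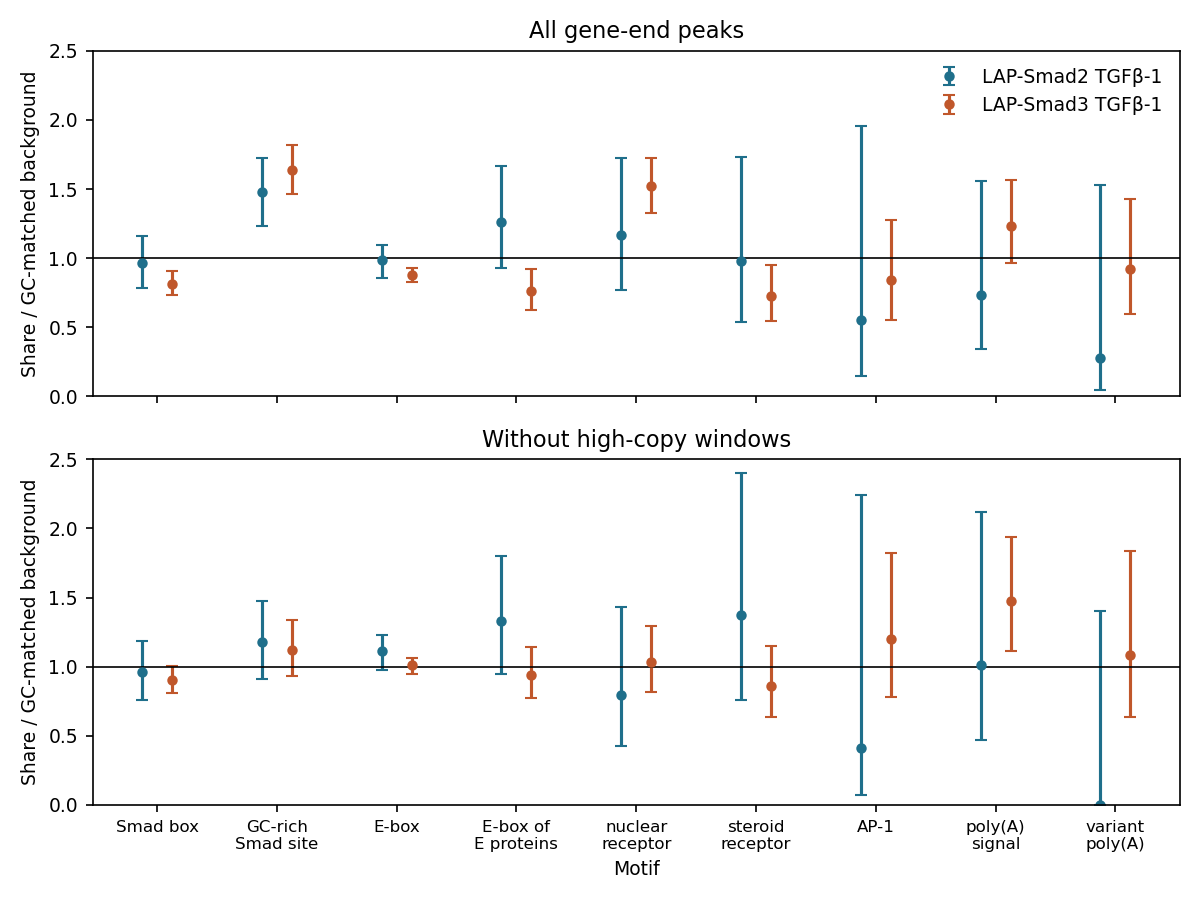
Share of gene-end peaks with a motif divided by the GC-matched share in gene-end windows outside all peaks (y axis) for 9 motifs (x axis; Smad box is CAGAC, GC-rich Smad site GGCGC, E-box CANNTG, E-box of E proteins CAGCTG, nuclear receptor AGGTCA, steroid receptor AGAACA, AP-1 TGANTCA, poly(A) signal AATAAA and its variant ATTAAA), with 95% counting intervals, for all gene-end peaks (top) and without high-copy windows (bottom). GGCGC stands at 1.48 and 1.64 in the top panel and at 1.18 and 1.12 in the bottom panel.

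Among the motifs of partner factors, the nuclear receptor hexamer AGGTCA, held by 13.0% of all gene-end windows, occurred in 25.3% of LAP-Smad3 gene-end peaks, or 1.52 times the weighted background (1.33 to 1.72). For LAP-Smad2 it was 13.7%, or 1.17 times (0.773 to 1.73). Over all peaks AGGTCA occurred in 27.3% of LAP-Smad3 and 14.0% of LAP-Smad2 windows, and the differences of gene-end peaks from the other peaks, -1.96 percentage points (-5.13 to 1.48) and -0.281 (-4.95 to 6.25), have intervals that include 0. Without high-copy windows the LAP-Smad3 ratio was 1.03 (0.817 to 1.30). The E-box CANNTG, the site of bHLH factors, had a LAP-Smad2 ratio of 0.983 (0.859 to 1.10) and a LAP-Smad3 ratio of 0.881 (0.828 to 0.932), and its form CAGCTG had 1.26 (0.930 to 1.67) and 0.761 (0.626 to 0.919). CANNTG contains CAGCTG, so these counts overlap. In LAP-Smad2, the CANNTG share at gene ends exceeded that of the other peaks by 12.3 percentage points (4.18 to 19.6). In LAP-Smad3 the difference was 6.77 (3.02 to 10.4). For CAGCTG the differences were 7.65 (1.52 to 15.2) and -0.726 (-3.11 to 2.08). Gene-end windows outside all peaks held CANNTG in 65.9% of cases and CAGCTG in 8.26%, without weighting. Without high-copy windows the LAP-Smad3 ratios to the weighted background were 1.01 (0.950 to 1.07) for CANNTG and 0.943 (0.775 to 1.14) for CAGCTG. Both intervals include 1. Over all gene-end peaks, the steroid receptor hexamer AGAACA had ratios of 0.977 (0.537 to 1.73) and 0.725 (0.548 to 0.954). The AP-1 site TGANTCA had 0.551 (0.151 to 1.95) and 0.843 (0.554 to 1.28).

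The poly(A) signal AATAAA, held by 33.0% of all gene-end windows, was found in 6 LAP-Smad2 (4.11%) and 59 LAP-Smad3 (8.79%) gene-end windows, 0.737 (0.340 to 1.56) and 1.23 times (0.964 to 1.57) the GC-weighted background. Without high-copy windows the LAP-Smad3 ratio was 1.48 (1.12 to 1.94). Over all LAP-Smad3 peaks AATAAA occurred in 4.41% of windows, and the gene-end share exceeded that of the other peaks by 4.43 percentage points (2.504 to 6.82). The rule picks positions at gene ends, which hold this signal, so that difference cannot show a preference of the peaks. Within LAP-Smad3 gene-end peaks AATAAA was less frequent near the summit, with 0.373 sites per kb (0.228 to 0.575) within 40 bp and 1.89 (1.64 to 2.17) from 120 to 200 bp away. GGCGC had the opposite profile, with 3.97 per kb (3.45 to 4.54) near the LAP-Smad3 summit against 1.64 (1.41 to 1.90), and 5.74 (4.45 to 7.28) against 2.83 (2.19 to 3.59) in LAP-Smad2. CAGAC was level, with 2.46 (2.06 to 2.92) against 2.79 (2.48 to 3.12) in LAP-Smad3 and 2.83 (1.94 to 3.97) against 2.31 (1.74 to 3.02) in LAP-Smad2. These counts by distance were not matched for GC content.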

How the data were processed

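ChIP-seq peak lists of 4 libraries were used. Per the study's methods, single-end reads were aligned to hg38 with Bowtie2, extended to 200 bp, and MACS2 called peaks with a cut-off of 0.05 on the q-value. The control library and tool versions are not given in the sources used here. Each deposited list gives, for each peak, a score, the fold enrichment (a ratio), and the −log10 of its p-value and q-value, all as the authors deposited them. The score was not used.

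Gene ends, transcript starts and CDS came from GENCODE release 44. Each peak was given to its nearest protein-coding gene end. Expected counts were computed from bases, on the same chromosome or in GC bins of 2%. Copies of 16-base words were counted over chromosomes 1 to 22, X and Y. A window had another copy if minimap2 2.31 gave more than 1 alignment with at least 90% matching bases, and repeats with very many copies can be missed by it. Python 3.11.15, numpy 2.4.6, pandas 2.3.3, scipy 1.17.1 and pysam 0.24.0 were used. Shares have Wilson intervals, differences of shares Newcombe intervals, and densities exact Poisson intervals, all at the 95% level. The functions were tested on simulated data and passed 11 of 11 checks.

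The members, gene lists and motifs were chosen with earlier results of these data known. Named genes were the 6 peaks per list with the highest −log10 q, the 10 overlapping pairs leading by the sum of their ranks, the 3 genes with most peaks, with ties, and up to 4 genes of each gene list per TGFβ-1 list. Peaks beside the 1 kb limit are named as well. Chromosome 8 was counted and not named, and some sequences are not reported here. With 1 library per condition no test was run. Alternatives covered the distances, the annotation, the q-value, list length, repeats and the placement.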

Additional observations from a re-analysis of the deposited data

Results flagged for a closer look

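On even placement over the genome, gene-end peaks stood at 0.69 times their expected number in the LAP-Smad2 list and at 1.38 times in the LAP-Smad3 list after TGFβ-1. These results are given for a closer look because they point in opposite directions under the same comparison. The difference was not tested, since each condition is 1 library.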

How the results depend on the processing

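No paired analysis was possible because each condition is 1 library, and leaving out a library would leave a condition empty. The planned removal of soft-masked repeats was not run because the genome used here carries no such marks, and the removal of high-copy windows, chosen after seeing the data, took its place. The cause of the changes below was not tested.

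For observed over expected peaks, 500 bp from the end gave 0.555 for LAP-Smad2 and 1.25 for LAP-Smad3. Transcript ends gave 1.23 for LAP-Smad3. Keeping CDS gave 0.958 (0.838 to 1.10) for LAP-Smad2, an interval that includes 1. For LAP-Smad3, distances of 1 kb and 5 kb from transcript starts gave 1.59 and 1.23, and lists of equal length 1.25. Without windows with another copy the ratios were 0.859 (0.713 to 1.03) and 1.65 (1.50 to 1.80). Without high-copy windows they were 0.854 (0.707 to 1.03) and 1.86 (1.70 to 2.04). Both LAP-Smad2 intervals include 1. In these settings the windows were removed from the peaks only, while the expected numbers still counted all bases. Equal GC content gave 0.529 for LAP-Smad2 and turned LAP-Smad3 to 0.896. Off transcript starts and CDS, placements chosen after seeing the data gave 1 and 1.69 when even, 0.449 and 0.813 with equal GC content, 1.04 for LAP-Smad3 with equal GC content and copies, and 1.13 for LAP-Smad3 with equal GC content and no high-copy windows.

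The share of LAP-Smad2 gene-end peaks overlapping LAP-Smad3 was 9.59% in lists of equal length, 9.09% without windows with another copy, 10.4% without high-copy windows, 12.3% at a mutual overlap of 50%, and 11.6% for summits within 100 bp. For LAP-Smad3 the last 4 were 2.15%, 3.26%, 2.53% and 2.68%. With CDS kept, 40.1% of LAP-Smad2 and 54.8% of LAP-Smad3 gene-end peaks were past the end. The LAP-Smad3 share was 54.4% without windows with another copy and 52.6% without high-copy windows. Its interval then included the share of all usable bases past the end, from which such sequence was not removed.

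Without GC matching the CAGAC ratios were 1.36 and 1.16 and the GGCGC ratios 6.99 and 4.80 for LAP-Smad2 and LAP-Smad3, and the CAGCTG ratio of LAP-Smad3 was 1.62. In 100 bp windows the CAGAC ratios were 1.21 and 0.948 and the GGCGC ratios 1.75 and 1.94. Without high-copy windows, GGCGC was at 1.18 and 1.12, CAGAC at 0.905 in LAP-Smad3 and CANNTG at 1.01 in LAP-Smad3. The other 60 values of these main results moved by less than their interval, among them each alternative value of the GC difference.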
